A study of Mus musculus with 6 samples.

Results

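The cytosolic ribosomal protein genes were followed in the livers of pregnant mice. Members were chosen by symbol: protein-coding genes named Rpl or Rps with a number, Rplp0, Rplp1, Rplp2 and Rpsa, with the S6 kinases and the pseudogenes left out. The rule took 86 of the 56691 genes in the deposited table, 52 of the large subunit, 33 of the small subunit, and Rps19bp1, which encodes a protein that binds Rps19 and is not itself a ribosomal protein. The symbol rule missed Fau and Rack1, whose products also sit in the ribosome, and these are given beside the members.

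All 6 libraries came from livers of female wild-type mice, C57BL/6J in the study's methods, and every animal was pregnant. In PF (n = 3) the pregnant mice ate a diet high in fructose (HFrD), and in PC (n = 3) they ate normal chow. In the methods the diet started in mid-gestation and animals of this kind were killed late in gestation, while the sources used here give no age. No group lacked pregnancy, so PF against PC compares diets within pregnancy only, and the labels do not say which animals shared a litter, day or batch.

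Ribosomal proteins assemble with ribosomal RNA in the nucleolus into a small subunit, which decodes the mRNA, and a large subunit, which joins amino acids. Each protein is needed in nearly the same number of copies, and their mRNAs are among the most abundant of most cells, the hepatocyte included. Most of these mRNAs begin with a cytosine followed by a run of pyrimidines, the 5′ terminal oligopyrimidine (TOP) tract, through which mTORC1 and Larp1 control their translation. Control of that kind acts on translation and is not measured by sequencing of poly(A) RNA.

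The start-site windows were searched for this element. RefSeq promoters (GRCm38.p6) were matched for 66 of the 86 members, in 78 windows, since some genes have more than 1 annotated start. Each window printed holds 30 bases, 15 before the annotated start and 15 from it on, 5′ to 3′ on the gene's strand. Capitals mark the longest run of C and T that opens with C and has at least 5 further pyrimidines. The first 6 are members with such a run: Rpl27a and Rpl15 for their long tracts, Rps6 as a stable member, Rpl35a as the member with the smallest p among those with a positive fold change, and Rpl4 and Rpl22l1 as the members with the smallest p of all.
Rpl27a, chr7:109519180-109519209, plus strand: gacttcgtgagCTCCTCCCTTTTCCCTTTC
Rpl15, chr14:18270972-18271001, minus strand: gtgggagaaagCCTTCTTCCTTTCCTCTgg
Rps6, chr4:86857353-86857382, minus strand: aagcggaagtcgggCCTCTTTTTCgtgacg
Rpl35a, chr16:33056467-33056496, plus strand: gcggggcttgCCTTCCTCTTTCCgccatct
Rpl4, chr9:64173372-64173401, plus strand: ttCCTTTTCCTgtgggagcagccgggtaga
Rpl22l1, chr3:28805493-28805522, plus strand: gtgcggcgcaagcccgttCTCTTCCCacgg
The run was found in 38 of the members' 78 windows (48.7%), against 22.5% of all 32851 windows in the RefSeq table. It lay across the annotated start in 18 genes, and elsewhere in the window, as in Rpl4 and Rpl22l1, it lies to the side of the base at which RefSeq starts the transcript.

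In other members no window held such a run, and in Rpl35a only 1 of 3 windows did. Rpl22, the partner of Rpl22l1, is shown for that contrast, and Rps3a1 because its window carries CCGGAAG, the core that ETS factors bind, here in capitals.
Rpl22, chr4:152324421-152324450, plus strand: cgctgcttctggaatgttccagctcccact
Rps3a1, chr3:86142654-86142683, minus strand: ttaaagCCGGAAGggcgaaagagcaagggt
Over the whole 300 bases, from 250 before to 50 after the start, and on both strands, CCGGAAG was in 34.6% of the members' windows, against 8.9% of all windows. GGGCGG, the GC box, was in 60.3% of the members' windows, against 35.7% of all. AAGATGG, which YY1 binds, was in 15.4%, against 6.3% of all. TATAAA, the TATA box, was in 9.0%, against 13.6% of all. These are letter matches only. The 36 tested members with a tract had a median log2 fold change of 0.01 for PF over PC, against −0.03 for the 27 with a window and no tract.

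The libraries held 16119145 to 17708187 gene counts in PF and 17335567 to 19676361 in PC. They differed in make-up along with diet. Albumin mRNA alone took 7.56% to 15.8% of the counts in PF and 18.1% to 19.9% in PC. Genes of the mitochondrial chromosome took 10% to 15.3% in PF and 5.03% to 9.69% in PC. The summed level of 10 hepatocyte markers, none of them at 0, was 87238 to 198644 CPM in PF and 249391 to 299209 CPM in PC. Albumin made up most of this sum, with 64739, 160769 and 62746 CPM in PF against 231352, 199332 and 223607 CPM in PC. Of the 10 markers 8 had a negative log2 fold change for PF over PC, and 2, Ttr (0.79) and Cps1 (0.26), a positive one. The Kupffer cell list, 10 of 10 tested, summed to 267 to 449 CPM in PF and 303 to 456 CPM in PC, and no listed marker of any cell type was at 0 in all libraries. A total is therefore shared out differently in PF, and 2 scales are given below: the share of all counts, and CPM (counts scaled to a total of 1e6) after TMM scaling, which sets the bulk of the genes equal between libraries. The part of albumin, mitochondrial genes or cell types in the results was not tested.

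As a share of all counts, the members were higher in the PF livers. Their 86 genes took 1.67% of the library in PF1, 1.44% in PF2 and 1.64% in PF3, against 1.16% in PC1, 1.41% in PC2 and 1.19% in PC3. The groups did not overlap, although PF2 and PC2 lay close together. The means were 1.59% ± 0.127 in PF and 1.25% ± 0.136 in PC (SD, n = 3 each), a ratio of 1.27. With albumin and the mitochondrial genes taken out of the total, the share was 2.18%, 2.05% and 1.995% in PF against 1.54%, 1.95% and 1.604% in PC, a ratio of 1.22.

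After TMM scaling the diets had nearly the same total. The members' summed level was 13593, 14634 and 13643 CPM in PF, against 13647, 15496 and 13356 CPM in PC. The ranges overlapped, and the means of 13957 ± 587 in PF and 14166 ± 1160 in PC (SD, n = 3 each) gave a ratio of 0.985. On the first scale the bulk of the genes was higher in PF too. With library totals alone, 82 of 83 tested members had a positive log2 fold change with a median of 0.37, and so did 85.5% of all tested genes, with a median of 0.39. On that scale edgeR placed 19 members higher in PF with an unadjusted p below 0.05, against 31.4% of all tested genes, and none was lower, against 2.1%. With albumin and mitochondrial genes left out of the totals 11 were higher, against 28.7%, and none was lower, against 2.16%, and no member passed the adjustment on either. With TMM scaling 43 of 83 members were positive, against 52.2% of all tested genes. In bulk tissue, more cells of a type and more RNA per cell cannot be told apart.

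**Figure D1:**
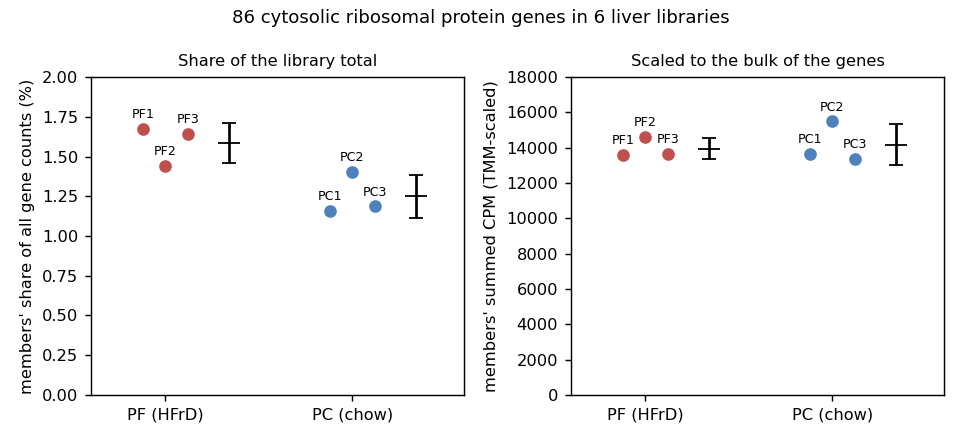
The members' total in the 6 libraries. The left panel gives the summed counts of the 86 members as a percent of all gene counts, and the right panel gives their summed TMM-scaled CPM; points are libraries, bars are mean and SD, with PF at 1.59% and PC at 1.25% on the left, and 13957 CPM in PF and 14166 CPM in PC on the right.

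Gene by gene, no member was called different between the diets. With a minimum mean of 1 FPKM (counts per kilobase of exon, scaled to the library total), 83 of 86 members were tested among 10756 genes. Of these 83, none passed an adjusted p of 0.05 in edgeR's quasi-likelihood test, and neither did any other gene (0.0% of all tested). At an unadjusted p under 0.05 no member was higher in PF, against 9.13% of all tested genes, and none was lower, against 7.9%. DESeq2 called no member at an adjusted p under 0.05, against 1.97% of genes called higher and 2.61% called lower, and its smallest adjusted p among the members was 0.251, for Rpl4.

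The estimates were close to 0 for nearly all members. The log2 fold change of PF over PC had a median of 0.01 over the members and 0.02 over all tested genes. Its middle 50% ran between −0.08 and 0.12 for members and between −0.21 and 0.27 for all genes, and its SD was 0.162 against 0.57. The size was under 0.25 in 75 of 83 members, against 51.5% of all tested genes. Members were also deeper sequenced than most, with a median mean count of 2743 against 312, and had a median coefficient of variation over the 6 libraries of 11.9% against 19.9%. The narrower spread is thus given beside a higher depth, and its part was not tested.

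The intervals give the range of fold changes that the libraries allow. The 95% interval of a member's log2 fold change reached 0.3 (Rpl7l1) to 0.73 (Rps27rt) to each side, with a median of 0.4. It lay within 1 to either side of 0 for 81 of 83 members, the exceptions being Rpl22l1 and Rps27rt. In simulated counts with 3 libraries a group, 0.0% of 1.5-fold and 16.5% of 2-fold changes were recovered at an adjusted p of 0.05 in edgeR. The changed genes were drawn from all tested genes, whose median count is lower than the members', so these rates are not the members' own. For the members, the size of change allowed is read from the intervals and not from the lack of calls.

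**Figure D2:**
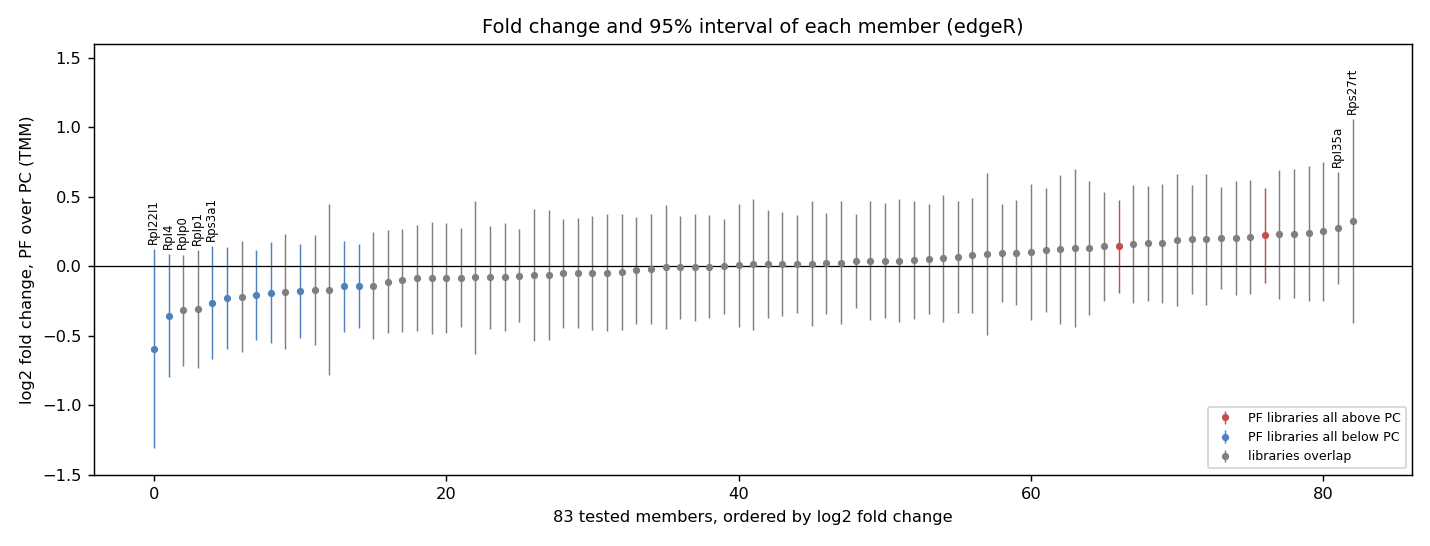
Log2 fold change of PF over PC for the 83 tested members, in order of size, with 95% intervals from edgeR. Colours mark members whose PF libraries all lay above (2 members) or all below (9 members) the PC libraries. Every interval holds 0.

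Groups of libraries did not overlap for 11 members on the TMM scale. Rpl22 and Rpl23a were higher in all PF libraries, which is 2 of 83 against 11.8% of all tested genes. Rpl3, Rpl4, Rpl7l1, Rpl10a, Rpl13a, Rpl15, Rpl22l1, Rpl41 and Rps3a1 were lower in all PF libraries, which is 9 of 83 against 11.1% of all. Of these 11, only Rps3a1 belongs to the small subunit. On library totals alone 41 of 83 members lay higher in all PF libraries, against 34.6% of all tested genes, and none lower, against 2.49%.

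Among proteins of the large subunit, Rpl4 had the smallest p after Rpl22l1. Rpl4 lines the exit tunnel through which the new chain leaves. It stood at 448, 401 and 515 CPM in PF1, PF2 and PF3, against 619, 532 and 596 CPM in PC1, PC2 and PC3. All PF libraries lay below all PC libraries, by a log2 fold change of −0.36 (SE 0.19, 95% interval −0.80 to 0.09, edgeR adjusted p = 0.383). On library totals the same fold change was 0.03, and 16 of the 38 members named by rule had the opposite sign on that scale.

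Rpl41, the smallest ribosomal protein, had 161, 176 and 193 CPM in PF against 221, 202 and 198 CPM in PC. Its groups did not overlap either, but PF3 and PC3 came close (log2 fold change −0.23, SE 0.16, edgeR adjusted p = 0.496). Rpl13a, a surface protein that is widely used as a reference gene, had 67.7, 73.0 and 79.6 CPM in PF against 87.9, 85.6 and 80.8 CPM in PC. Its log2 fold change was −0.21 (SE 0.14, edgeR adjusted p = 0.486). Rpl3, which reaches to the peptidyl transferase centre, had 213, 203 and 235 CPM in PF against 258, 244 and 241 CPM in PC, a log2 fold change of −0.19 (SE 0.16, edgeR adjusted p = 0.572).

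The members of the stalk, the flexible arm that recruits the elongation factors, were led by Rplp0, its base. Rplp0 had 166, 177 and 212 CPM in PF against 244, 210 and 237 CPM in PC. PF3 lay above PC2, so the groups overlapped, and the log2 fold change was −0.32 (SE 0.17, edgeR adjusted p = 0.389). Rplp1, which binds that base with Rplp2, had 181, 170 and 141 CPM in PF against 180, 234 and 195 CPM in PC. Its log2 fold change was −0.31 (SE 0.18, edgeR adjusted p = 0.431). Rplp2 had 61.0, 72.7 and 62.7 CPM in PF against 65.8, 80.7 and 64.0 CPM in PC, and Rpl12, beside the base, had 169, 171 and 136 CPM in PF against 139, 189 and 140 CPM in PC. Over these 4 genes the median log2 fold change was −0.20, with 1 positive and none past an unadjusted p of 0.05.

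Rpl5 and Rpl11, which carry 5S rRNA into the large subunit and bind Mdm2 when assembly fails, gave nearly equal levels between diets. Rpl5 had 238, 238 and 284 CPM in PF against 274, 248 and 253 CPM in PC. Rpl11 had 219, 270 and 192 CPM in PF against 220, 281 and 211 CPM in PC. Their log2 fold changes were −0.03 (95% interval −0.41 to 0.35) and −0.07 (95% interval −0.54 to 0.41).

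On the other side of 0, Rpl35a had the smallest p. It is a large-subunit protein that is mutated in some families with Diamond-Blackfan anaemia in humans. Rpl35a had 169, 176 and 155 CPM in PF against 125, 163 and 125 CPM in PC. PF1 and PF2 lay above every PC library and PF3 lay under PC2, with a log2 fold change of 0.27 (SE 0.17, edgeR adjusted p = 0.46). Without PC2 it was 0.41. Rpl31, at the mouth of the exit tunnel, had 172, 181 and 158 CPM in PF against 131, 175 and 135 CPM in PC, a log2 fold change of 0.21 (SE 0.18). Rpl21 and Rpl36a, also of the large subunit, had log2 fold changes of 0.23 and 0.20, and their libraries overlapped.

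Of the genes often used to scale liver expression, Rpl19, Rpl27, Rpl32 and Rps18 overlapped between diets along with Rplp0, while Rpl4 and Rpl13a did not. The 7 reference genes ran between −0.36 (Rpl4) and 0.17 (Rps18), with a median of −0.05. Rpl19 had 264, 328 and 261 CPM in PF against 259, 330 and 260 CPM in PC, so that libraries with the same number nearly coincided. Its log2 fold change was 0.01 (95% interval −0.44 to 0.45).

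In the small subunit Rps6 and Rps9 both stayed near a constant level. Rps6 is the protein that S6 kinases phosphorylate downstream of mTORC1, and it had 270, 300 and 313 CPM in PF against 295, 299 and 290 CPM in PC. The coefficient of variation was 4.8% over all 6 libraries, and the log2 fold change was −0.00 with a 95% interval of −0.37 to 0.37. Rps9, which lies near the entry of the mRNA, varied less, by 4.33%, and had a log2 fold change of −0.00 as well.

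Rps3a1, near the exit of the mRNA channel, had 374, 442 and 406 CPM in PF against 518, 493 and 454 CPM in PC. It did not overlap between groups, at a log2 fold change of −0.26 (SE 0.17, edgeR adjusted p = 0.485). Rpsa, known also as a laminin receptor, had 310, 261 and 249 CPM in PF against 309, 340 and 305 CPM in PC. PF1 lay above PC1 and PC3, and the log2 fold change was −0.22 (SE 0.17, edgeR adjusted p = 0.555).

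Rps23, in the decoding centre, had 200, 223 and 213 CPM in PF against 177, 204 and 172 CPM in PC. Only PF1 lay below PC2, and the log2 fold change was 0.20 (SE 0.16, edgeR adjusted p = 0.553). Rps19, the gene most often mutated in Diamond-Blackfan anaemia in humans, had 72.9, 85.8 and 73.0 CPM in PF against 71.0, 87.3 and 60.9 CPM in PC. Its log2 fold change was 0.08 (95% interval −0.33 to 0.49). Rps19bp1, which is not a ribosomal protein, had 7.10, 11.9 and 7.87 CPM in PF against 9.12, 10.8 and 8.47 CPM in PC.

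By subunit, 24 of 49 tested large-subunit members had a positive log2 fold change, with a median of −0.01 and values between −0.59 and 0.27. In the small subunit 19 of 33 were positive, with a median of 0.02 and values between −0.26 and 0.33.

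Rps27a and Fau are made as fusions to ubiquitin or a ubiquitin-like protein. Fau lay apart: it had 146, 141 and 137 CPM in PF against 106, 134 and 106 CPM in PC, without overlap, at a log2 fold change of 0.29 (SE 0.16, edgeR adjusted p = 0.393). Rps27a had 223, 297 and 224 CPM in PF against 239, 266 and 218 CPM in PC. Rack1, the scaffold on the head of the small subunit, had a log2 fold change of −0.10 (SE 0.15).

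Paralogues gave the widest values. Rpl22l1 encodes a close relative of Rpl22, an RNA-binding protein of the large subunit, and in mice loss of Rpl22 is known to raise Rpl22l1. Rpl22l1 stood at 57.3, 61.9 and 26.1 CPM in PF1, PF2 and PF3, against 71.0, 79.6 and 68.3 CPM in PC1, PC2 and PC3. Every PF library was below every PC library, and PF3 was far below the other PF libraries. The log2 fold change of −0.59 (SE 0.31, 95% interval −1.31 to 0.12, edgeR unadjusted p = 0.0922, adjusted p = 0.371) depended on single libraries, at −0.29 without PF3 and −0.82 without PF2.

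Rpl22 itself ran the other way, at 106, 100 and 119 CPM in PF against 94.2, 98.7 and 86.1 CPM in PC. PF3 was highest and PF2 was close to PC2, with a log2 fold change of 0.22 (SE 0.15, edgeR adjusted p = 0.48). Of the counts of both genes, Rpl22l1 took 35.1%, 38.1% and 18.0% in PF against 43.0%, 44.7% and 44.2% in PC. Per length of mRNA this was 66.8%, 69.6% and 44.9% in PF against 73.7%, 75% and 74.7% in PC. The means of the count shares were 30.4% ± 10.9 in PF and 44.0% ± 0.871 in PC (SD, n = 3 each). This gave an exact permutation p of 0.1 (two-sided), the smallest that 3 against 3 allows, and 0.4 after Benjamini-Hochberg adjustment over the 8 paralogue pairs compared. That adjusted value draws on 2 pairs at the smallest p. The other pair, Rpl39 and Rpl39l, rests on 1 Rpl39l count in each PF library and 0 in each PC library.

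**Figure D3:**
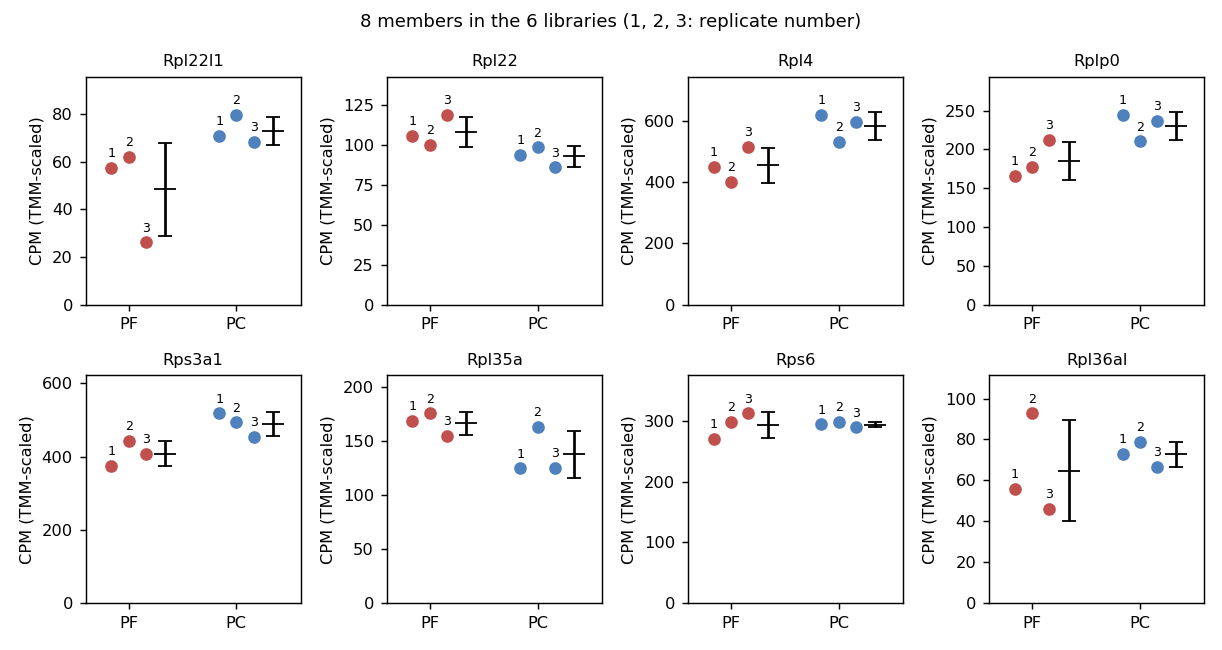
TMM-scaled CPM of 8 members in each library, PF on the left and PC on the right of each panel, with mean and SD beside the points. Rpl22l1 is low in PF3 (26.1 CPM), Rpl36al is high in PF2 (92.7 CPM), and Rps6 stays between 270 and 313 CPM.

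Rpl36al, an intronless copy of Rpl36a, also had a library apart. It had 55.6, 92.7 and 46.0 CPM in PF against 72.8, 78.8 and 66.5 CPM in PC, so PF2 exceeded every other library. The log2 fold change of −0.17 (SE 0.26, edgeR adjusted p = 0.787) became −0.53 without PF2 and 0.03 without PF3. Its share of the counts of Rpl36a and Rpl36al was 35.9%, 53.1% and 36.2% in PF against 52.3%, 46.6% and 48.4% in PC (exact permutation p = 0.4, two-sided).

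Rps27l is a p53 target. It had 142, 157 and 121 CPM in PF against 103, 154 and 111 CPM in PC, and its share of the counts of Rps27 and Rps27l was 58.8% to 65.6% in PF and 55.1% to 63.9% in PC. Per length of mRNA the share was 49.6% to 56.9% in PF and 45.9% to 55.1% in PC, so that both genes had about the same level. Rps27rt, an intronless copy of Rps27, had 3.68, 4.0 and 4.92 CPM in PF against 2.95, 4.83 and 2.29 CPM in PC, and was the member with the widest interval. Rpl7l1, a relative of Rpl7, had 50.3, 46.7 and 53.0 CPM in PF against 55.0, 53.3 and 57.3 CPM in PC. It lay lower in every PF library by a log2 fold change of −0.14 (SE 0.13, edgeR adjusted p = 0.615).

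The 3 members under the minimum are paralogues known from other tissues. Rpl10l, which replaces Rpl10 in male germ cells, had 0 counts in all 6 libraries. Rpl39l, also known from testis, had 1 count in each PF library and 0 in each PC library, which is under the 3 counts that a count of 0 allows. Rpl3l, known from muscle, had 10, 2 and 3 counts in PF against 4, 9 and 0 in PC, which was 0.0597% to 0.236% of its pair with Rpl3 in PF and 0% to 0.234% in PC. Intervals and limits of this kind cover counting error only.

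The members were highly expressed in both diets and unequal among themselves. All 83 ranked at or above percentile 70.6 of tested genes by FPKM, and the median member had 86.3 FPKM, against 4.07 FPKM for all tested genes. The highest were Rps3a1 with 457 FPKM, Rplp1 with 367, Rpl19 with 279, Rps15 with 274 and Rpl4 with 258. The lowest tested were Rps19bp1 with 8.47 FPKM, Rps27rt with 10.4, Rps10 with 10.9, Rps15a with 14.9 and Rpl7l1 with 15.2. Without Rps19bp1 the 82 others, paralogues such as Rps27rt and Rpl7l1 included, spread 43.9-fold, although the ribosome holds nearly equal numbers of each protein.

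**Figure D4:**
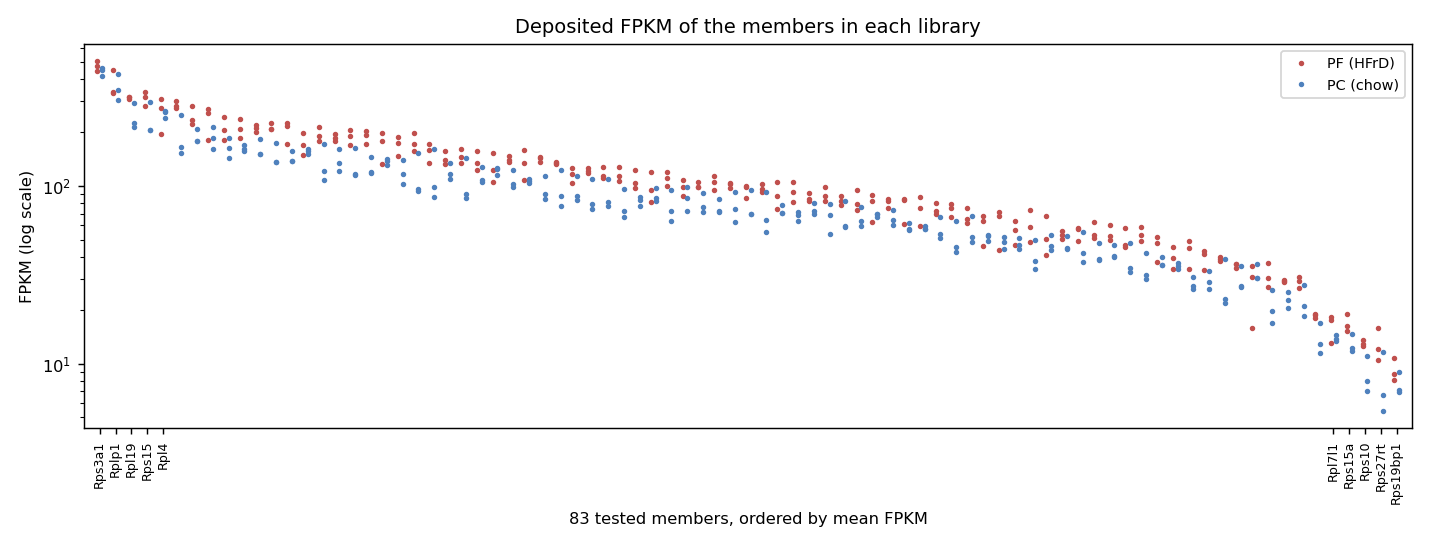
Deposited FPKM of the 83 tested members on a log scale, ordered by their mean over the 6 libraries, with PF points left of PC points for each gene and the 5 highest and 5 lowest named. Levels run from 457 FPKM for Rps3a1 to 8.47 FPKM for Rps19bp1, and most PF points sit above the PC points of the same gene on this scale of library totals.

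Part of that order follows the length used. The deposited FPKM divides by the union of all annotated exons, which was longer than a member's main mRNA by a median ratio of 2.04 and by as much as 7.4 for Rps19. Divided by the main mRNA instead, the highest TMM-scaled levels were those of Rpl10 (556 CPM per kilobase), Rpl26 (492), Rps3a1 (458), Rpl41 (439) and Rps18 (402), and the 82 members still spread 55.0-fold, or 31.1-fold without Rps27rt, the lowest. Rpl35a was at place 67 by FPKM and at place 15 by this measure. After Rps27rt the lowest were Rps15a (17.9 CPM per kilobase), whose main mRNA was taken as 5179 bases, the paralogue Rpl7l1 (20.2), and Rps10 (27.9). The level of Rps10 is uncertain because of its pseudogenes, as given below. The part of assigned length, paralogues and counting in this spread was not tested. The order was shared by the libraries, with Spearman's rho between 0.922 and 0.985 over the 15 pairs of libraries, a description across genes of 1 tissue.

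Counting also bears on single members. Pseudogene rows of the members held 2.38%, 2.5% and 2.43% as many counts as the members in PF, and between 2.37% and 2.42% in PC. For 6 of 58 parents they exceeded 10%: Rps10 (90.2%), Rpl14 (30.4%), Rpl21 (21.4%), Rpl17 (17.5%), Rpl36a (16.8%) and Rpl38 (13.7%). The levels of these genes are uncertain, that of Rps10 most of all, with 24.3, 31.8 and 24.0 CPM in PF against 19.1, 28.4 and 20.8 CPM in PC. A gene on the opposite strand overlapped 6 members and had at least 10% of their counts: Tlcd1 at Rpl23a (52.1%), Ndst1 at Rps14 (37.5%), Arpc5l at Rpl35 (33.8%), Nkiras1 at Rpl15 (24.2%), Sphk2 at Rpl18 (18.4%) and Tbc1d8 at Rpl31 (10.7%). How strand was handled in counting is not given in the sources used here, so reads of such pairs may not be told apart, Rpl23a and Rpl15 among the members without overlap between groups included.

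Within each diet the members varied together by library. On the TMM scale they were high in PF2 and PC2. Of 83 members, 61 lay above their own 6-library mean in PF2 and 77 in PC2, against 38 in PF1, 34 in PF3, 27 in PC1 and 18 in PC3. Of all 10756 tested genes, 5502 did so in PF2 and 5436 in PC2, and between 5267 and 5756 in the other 4. The median deviation was 0.11 on the log2 scale in PF2 and 0.17 in PC2, and between −0.10 and 0.00 in the other 4, while the median of all tested genes stayed between −0.01 and 0.02. PC2 was the highest library for 37 members and the lowest for none. PF2 was the highest for 25. Counts of the highest and lowest library over all tested genes are not given here. The number 2 is only a label in both groups, as the labels do not pair PF2 with PC2.

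The medians of the short mRNAs had the widest range over the libraries. Among the 26 members with an mRNA under 600 bases the median deviation was 0.02, 0.20 and −0.06 in PF1, PF2 and PF3, against −0.16, 0.23 and −0.18 in PC1, PC2 and PC3. Among the 25 over 1000 bases it was −0.06, 0.02 and 0.01 in PF, against −0.02, 0.12 and −0.06 in PC. Between diets the medians of the log2 fold change were 0.09 for the short, −0.01 for the 32 of middle length and −0.03 for the long mRNAs. Of the short ones 20 of 26 were positive, and of the long ones 10 of 25. Without PC2 the median over all members was 0.09, and 5 members, with Rpl35a, Rpl36, Rps27rt and Rps28 among them, had a higher level at an unadjusted p under 0.05 in edgeR, none of them past the adjustment. These were 5 of 83 members, against 10.6% of all tested genes in the fit without PC2, and 0 members were lower, against 8.65%.

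**Figure D5:**
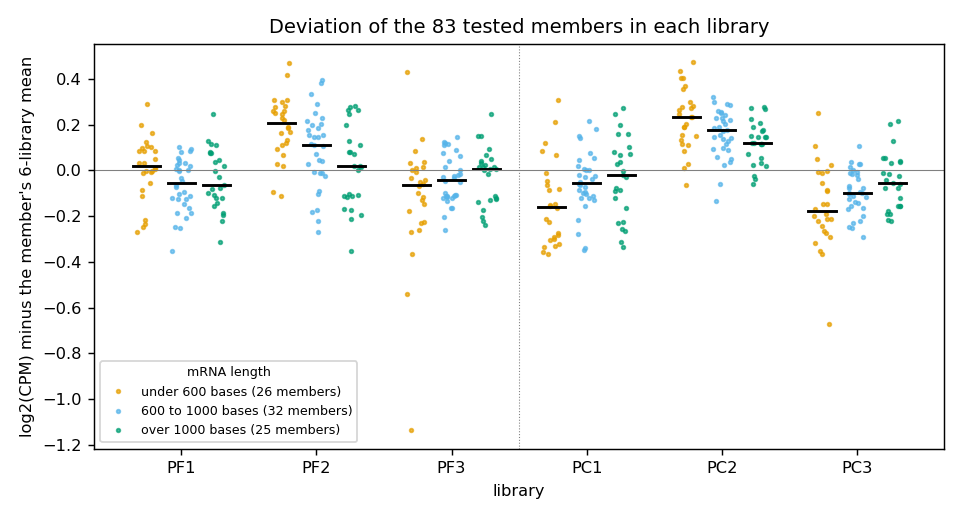
Log2 CPM of each tested member minus its own mean over the 6 libraries, by library and by mRNA length; black bars are medians. Members under 600 bases have medians of 0.20 in PF2 and 0.23 in PC2, and of −0.16 in PC1 and −0.18 in PC3.

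Other measures of the libraries ran in part along with this. Erythroid markers, 7 of 8 matched and 5 tested, summed to 127, 209 and 67.4 CPM in PF against 204, 244 and 55.6 CPM in PC, highest in PF2 and PC2 within their groups. The neutrophil list, of which 2 of 8 were tested, summed to 2.32, 5.88 and 6.70 CPM in PF against 8.54, 2.16 and 8.53 CPM in PC. The stellate cell list, 7 of 10 tested, summed to 333, 282 and 399 CPM in PF against 355, 260 and 384 CPM in PC. The list for sinusoidal endothelial cells, 10 of 10 tested, summed to 251, 222 and 226 CPM in PF against 264, 202 and 221 CPM in PC. For cholangiocytes 1 of 8 was tested, and the list stood at 57.8, 31.1 and 82.8 CPM in PF against 56.1, 25.2 and 45.4 CPM in PC. These 3 lists were lowest in PF2 and PC2 within their groups, where the members were high. The part of any of these lists in the members' levels was not tested.

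Genes that work with the ribosome gave a mixed picture, with no gene past the adjusted threshold in edgeR. Of the 77 tested mitochondrial ribosomal proteins, which form the separate ribosome of that organelle, 1 was higher and 2 were lower at an unadjusted p under 0.05. Of all tested genes 9.13% were higher and 7.9% lower at this threshold. The median log2 fold change of the 77 was −0.06. They were also highest in PC2, with a summed level of 1911, 1863 and 1741 CPM in PF against 1787, 2115 and 1812 CPM in PC. The proteasome, another large complex of fixed make-up, was set beside the members. Of its 37 subunits none was higher, against 9.13% of all tested genes, and 9 were lower, against 7.9%. Against a median of 0.01 for the members, these subunits had a median of −0.24. Their summed level was 2318, 2198 and 2174 CPM in PF against 2745, 2686 and 2613 CPM in PC, without overlap, and the difference between these lists and the members was not tested.

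Of 37 translation initiation factors none was higher and 2 were lower at an unadjusted p under 0.05. Of all tested genes 9.13% were higher and 7.9% lower, and the median of the 37 factors was −0.13. Eif2b4, a subunit of the exchange factor that recharges eIF2, had 18.2, 50.8 and 15.7 CPM in PF against 72.1, 80.1 and 68.5 CPM in PC. PF1 and PF3 were far below PF2, and the log2 fold change was −1.38 (SE 0.43, edgeR adjusted p = 0.198). It was the factor that DESeq2 called, at an adjusted p of 0.0285. Eif3b, of the scaffold that binds the small subunit, had 61.4, 56.1 and 72.8 CPM in PF against 82.7, 76.3 and 90.3 CPM in PC, a log2 fold change of −0.39 (SE 0.16, edgeR adjusted p = 0.275).

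Among 8 tested elongation genes, Eef1e1, a subunit of the tRNA synthetase complex, was higher at an unadjusted p of 0.0104 in edgeR, with an adjusted p of 0.19. It had 10.0, 9.15 and 9.84 CPM in PF against 5.52, 7.31 and 6.41 CPM in PC. At an unadjusted p under 0.05 this was 1 of 8 higher, against 9.13% of all tested genes, and none was lower, against 7.9%. The list leaned the other way, with 6 of 8 negative and a median log2 fold change of −0.12. Eef1b2, Eef1g and Eif5a were lower in all PF libraries, 3 of 8 against 11.1% of all tested genes. Eef1e1 alone was higher in all, 1 of 8 against 11.8%. The 2 main factors were widely spread: Eef1a1, which brings the tRNA, had 2687, 2394 and 4288 CPM in PF against 3667, 2876 and 3215 CPM in PC, and Eef2, which moves the ribosome along, had 508, 604 and 880 CPM in PF against 892, 707 and 826 CPM in PC. PF3 was the highest PF library for both.

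Outside the ribosome, 29 other genes with TOP mRNAs were tested, and 4 were higher and none lower at an unadjusted p under 0.05, with a median of 0.18. The 4 were Epb41l4aos, Snhg8, Taf1d and Zfas1, to be read against 9.13% of all tested genes higher and 7.9% lower. Zfas1, a non-coding host of small nucleolar RNAs, had 13.7, 12.5 and 9.09 CPM in PF against 6.42, 8.07 and 7.90 CPM in PC, a log2 fold change of 0.65 (SE 0.21, edgeR adjusted p = 0.201). Snhg8, another host, had 22.2, 28.9 and 19.0 CPM in PF against 12.7, 17.9 and 13.9 CPM in PC, a log2 fold change of 0.66 (SE 0.21, edgeR adjusted p = 0.203). The groups did not overlap for either gene. Other hosts on the list, Gas5, Snhg1, Snhg5, Snhg6 and Snhg12, overlapped between the diets, with log2 fold changes of 0.22, 0.40, 0.52, 0.04 and 0.28 and unadjusted p-values of 0.175 or more in edgeR.

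Of 63 ribosome biogenesis genes 5 were higher and 1 was lower at an unadjusted p under 0.05, with a median of 0.03, against 9.13% and 7.9% of all tested genes. The 5 were Heatr1, Riok2, Sbds, Utp14a and Utp20, and their groups did not overlap, nor did those of Nop14. The groups of Ddx18, Efl1, Fbl and Nop16 lay apart the other way, lower in PF. Without overlap, 6 of 63 were thus higher, against 11.8% of all tested genes, and 4 of 63 lower, against 11.1%. Utp14a had 20.2, 21.2 and 19.9 CPM in PF against 14.5, 15.8 and 16.4 CPM in PC, a log2 fold change of 0.39 (SE 0.13, edgeR adjusted p = 0.212). Ddx18, a helicase of large-subunit assembly, was lower, at 14.1, 10.4 and 12.4 CPM in PF against 16.4, 16.3 and 17.0 CPM in PC (log2 fold change −0.43, SE 0.15, edgeR adjusted p = 0.231).

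Among regulators, Myc, which drives transcription of ribosomal protein and biogenesis genes in many cells, had 3.63, 5.70 and 2.76 CPM in PF against 10.5, 10.3 and 4.58 CPM in PC. PF2 lay above PC3, so the groups overlapped, and the log2 fold change was −1.07 (SE 0.39, edgeR adjusted p = 0.241). Mtor had 26.2, 27.2 and 28.3 CPM in PF against 30.5, 39.0 and 32.2 CPM in PC, without overlap (log2 fold change −0.32, SE 0.14, edgeR adjusted p = 0.315). Larp1, which holds TOP mRNAs when mTORC1 is off, had 148, 95.6 and 116 CPM in PF against 107, 99.9 and 151 CPM in PC. Of 23 tested genes of TOP and mTORC1 control, 1 was higher and 2 were lower at an unadjusted p under 0.05. The 1 higher was Zfp598, a ribosome quality control gene that was on both lists and is counted again below. Of all tested genes 9.13% were higher and 7.9% lower.

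Of 16 ribosome quality control genes 2 were higher and 1 was lower at that threshold, against 9.13% and 7.9% of all tested genes. Zfp598, the ligase that marks Rps10 and other small-subunit proteins on collided ribosomes, had 54.5, 52.8 and 44.1 CPM in PF against 37.6, 41.3 and 39.4 CPM in PC, a log2 fold change of 0.36 (SE 0.14, edgeR adjusted p = 0.266). Ascc3, which splits such ribosomes, had 14.7, 15.4 and 18.0 CPM in PF against 22.5, 18.6 and 21.4 CPM in PC, a log2 fold change of −0.38 (SE 0.15, edgeR adjusted p = 0.266). Of 18 tested genes of RNA polymerase I, which makes the large ribosomal RNA precursor, 1 was higher and none was lower. The 1 higher was Taf1d, already counted among the other TOP mRNAs. The shares of all tested genes were again 9.13% and 7.9%, and the median of the 18 was 0.00.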

How the data were processed

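Poly(A) RNA from 6 livers was sequenced, and libraries were grouped by title. The authors deposited a whole-number count for each gene and library, and the deposited FPKM equals that count over exonic length in kilobases and over the library total, scaled to 1e6. The deposited gene coordinates are on GRCm39 and are not printed; promoter windows are on GRCm38.p6. HTSeq 0.6.1, HISAT2 2.2.1, cutadapt 1.9.1 and DESeq2 stand in the submitters' processing notes, without roles. For strand and annotation release the entry is: not given in the sources used here.

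Symbols were matched by Ensembl identifier for 52073 of 56691 genes, and main mRNA lengths came from GENCODE. Members, lists (290 of 298 genes matched), tests and alternatives were chosen with earlier results of these data known. The 10756 genes averaging 1 FPKM or more were tested with edgeR 4.0.16 (R 4.3.3), quasi-likelihood, TMM factors, no covariate, two-sided, p-values adjusted by Benjamini-Hochberg over these genes at 0.05. Each SE is the fold change over the square root of F. DESeq2 1.42.0 and limma 3.58.1 (pseudocount 1 or 0.1), other scalings and filters, and each library left out were alternatives. Within each group, libraries differed by more than sampling noise. P-values measure only the spread between these samples. Named members were those with the smallest p in each direction (up to 8), the 5 highest, lowest and most variable, and lists of paralogues, stalk, 5S particle, reference and fusion genes; Rpl23a, Rpl26, Rpl10, Rpl10a, Rpl15, Rps9 and others were named after their values were seen. Not every gene meeting the rule is given here. In simulated counts with 200 changed genes, 0.0% of 1.5-fold, 16.5% of 2-fold and 82.8% of 4-fold changes were recovered, with 7 false calls.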

Additional observations from a re-analysis of the deposited data

How the results depend on the processing

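No member passed an adjusted p of 0.05 under any of the 17 alternatives, and none of the 646 values of the 38 named members did, although 146 of them moved by more than the spread between replicates. Over all tested genes the count past 5% was 0 in edgeR, 180 on library totals alone, 493 in DESeq2, 4 in limma on log2(FPKM + 1), 2 on log2(FPKM + 0.1), 555 without a filter (28042 genes), 1 with filterByExpr, and 0 to 403 with a library left out (403 without PF2). Members at an unadjusted p under 0.05, none in edgeR, numbered 19 on library totals, against 31.4% of all tested genes, and 11 on totals without albumin and mitochondrial genes, against 28.7%, all higher. They numbered 21 in limma on either FPKM scale, against 29.0% and 29.2% higher with pseudocounts of 1 and 0.1, 1 in DESeq2 (Rpl4, lower, against 8.73%), 1 in voom with quantile normalization (Rpl35a, higher, against 8.56%), 1 without a filter (Rpl22l1, lower, against 5.42%), and 0 to 5 with a library left out (5 higher without PC2, against 10.6%; Rpl22l1 and Rpl36al lower without PF2, against 10.5%). The median log2 fold change of members was 0.373 on totals, 0.317 on totals without albumin and mitochondrial genes, 0.361 and 0.374 in limma with pseudocounts of 1 and 0.1, and 0.129 in voom, against 0.388, 0.335, 0.29, 0.364 and 0.013 for all genes. The cause was not tested. It was −0.045 to 0.088 with a library left out. The ratio of the members' share stayed between 1.22 and 1.27 under another denominator, another set of rows or summed FPKM, and between 1.224 and 1.352 when, as a choice made after seeing the data, each library was left out. With the replicate number as a block, 0 genes passed 5%, 1 member (Rpl22l1, lower) had an unadjusted p under 0.05, against 8.97% of genes, and the members' median was 0.011; same-numbered libraries deviated with correlations of −0.174, 0.275 and 0.107, so the numbers were not taken as pairs.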

Other observations

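The genes dropped by the rule were measured as well. Of the 9 S6 kinase rows, 4 were tested and none had an unadjusted p under 0.05 in edgeR. Rps6kb1, the kinase that phosphorylates Rps6, had 31.8, 38.9 and 32.1 CPM in PF against 28.0, 29.6 and 32.6 CPM in PC (log2 fold change 0.19, SE 0.14). Rps6ka1, a kinase of the ERK pathway, had 8.62, 16.9 and 15.8 CPM in PF against 10.4, 11.1 and 8.47 CPM in PC (log2 fold change 0.47, SE 0.27).

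Of the 305 pseudogene and non-coding rows 55 were tested, with a median log2 fold change of 0.03. At an unadjusted p under 0.05 in edgeR 2 were higher, Rpl17-ps5 and Rpl7a-ps5, against 9.13% of all tested genes. In the other direction 0 were lower, against 7.9%, and none passed the adjustment in edgeR. Rpl17-ps5 had 4.23, 4.36 and 3.94 CPM in PF against 2.83, 2.99 and 3.09 CPM in PC. Rps4l, a transcribed copy of Rps4x, had 4.13, 13.6 and 5.39 CPM in PF against 4.82, 5.59 and 6.64 CPM in PC, with PF2 above the 5 other libraries.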
